A study of Mus musculus with 6 samples.

Results

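Tight junction claudins and their partners were described in mouse ear skin as 10 genes: the claudins Cldn1, Cldn3, Cldn4, Cldn5, Cldn7, Cldn8, Cldn12 and Cldn23, with occludin (Ocln) and the scaffold gene Tjp1. They were found as the non-control probes that carry 1 of these gene names on the array, which gave 12 of 39429 non-control probes. Each of 8 genes had 1 probe, while Cldn4 and Ocln had 2 probes each. The KO group was 3 mice labelled as deficient in NC16A (KO 1, KO 2 and KO 7), and the WT group was 3 mice labelled as sufficient in it (WT 1, WT 2 and WT 3). NC16A is the extracellular domain of BP180 (collagen XVII, encoded by Col17a1) that lies next to the membrane, and BP180 anchors basal keratinocytes to the basement membrane. All mice contributed RNA from whole, fresh ear skin, were matched for age and sex across the groups, and were measured on 1 array each with a single dye (Cy3). The labels used here give no age, strain or extent of the deletion, so the sources do not show in which cells the domain is missing.

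Tight junctions seal the space between neighbouring epithelial cells. Claudins form the strands of the seal and set which ions and solutes pass, occludin is a further membrane protein of the strand, and ZO-1, the product of Tjp1, ties the strand to actin. In epidermis the working tight junction lies in the granular layer beneath the cornified envelope, and mice without Cldn1 die soon after birth from water loss through the skin. Cldn5 is best known as the claudin of endothelial cells. In whole skin, fewer cells of a type and less RNA per cell cannot be told apart.

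The probes that carry the main differences are shown by their first 30 of 60 bases, 5′ to 3′ in the sense of the transcript, because each value below is the hybridisation to that probe alone. Positions are those of the scanner files (mm9, minus strand).
Cldn1, chr16:26357372-26357431: ctctctcaaatgaggagttcctaaagctta
Cldn8, chr16:88561135-88561194: aaagatgttgtccatatgtatttcaactcc
Cldn23, chr8:36888537-36888596: ttgagggagaagaaaagaagacagccacct
Ocln, first probe, chr13:101268529-101268588: aaatggcttttgataattgactgggctgaa
Ocln, other probe, chr13:101267384-101267443: cccaatttggtctgttttagctgaaaatgt
Cldn4, first probe, chr5:135421347-135421406: accctactaatgaatttctgtagagtggat
Cldn4, other probe, chr5:135422135-135422194: acaacgtcatccgcgacttctacaacccta
The Ocln and Cldn4 pairs are shown because their probes gave different directions.

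Between 72.6% and 78.2% of the 43020 non-control spots of an array were well above background, and no spot was saturated. The array's 75th percentile of the processed signal was 4416, 4164 and 3806 on the KO arrays and 6656, 5276 and 5513 on the WT arrays, so every value below is log2 of the signal minus that percentile. The arrays lay on 2 slides, with KO 1 and all WT arrays on slide 1 and KO 2 and KO 7 on slide 2. The slide is therefore partly confounded with the group, and within slide 1 only KO 1 can be set against WT. Col17a1 itself measured 4.48, 4.31 and 4.10 on the KO arrays and 4.41, 4.39 and 4.47 on the WT arrays, but the sources do not place its probe relative to the deleted domain, so it does not check the labels. The precision of all values is limited by 3 arrays a group.

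On each of the 6 arrays, all 12 member probes exceeded background clearly. None of the 10 genes passed limma at an adjusted p under 0.05, with 0 higher and 0 lower in KO. Over all 23676 genes tested, 1.98% were higher and 0.389% lower by the same rule, or 2.37% in either direction. At an adjusted p under 0.10, only Cldn23 passed, lower in KO, where 6.63% of all genes were higher and 1.99% lower. At an unadjusted p under 0.05, 3 members were lower in KO and none higher, against 9.73% lower and 16.9% higher over all genes, or 26.6% in either direction. The same 3 genes, Cldn1, Cldn8 and Cldn23, had all KO arrays below all WT arrays, an arrangement found in 14.0% of all genes. Cldn12 had all KO arrays above all WT arrays, as did 21.4% of all genes. The remaining 6 genes overlapped between the groups. The median difference over the members was −0.07, beside 0.05 over all genes tested, and 5 members were lower and 5 higher in mean. These counts include an Ocln spot on WT 3 that lies in a dim patch, described with that gene. Without that spot 6 members were lower and 4 higher in mean, with a median of −0.22, and 4 had all KO arrays below the WT arrays while 5 overlapped. At an unadjusted p under 0.05, 4 members were then lower, and still 0 passed limma at an adjusted p under 0.05.

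**Figure D1:**
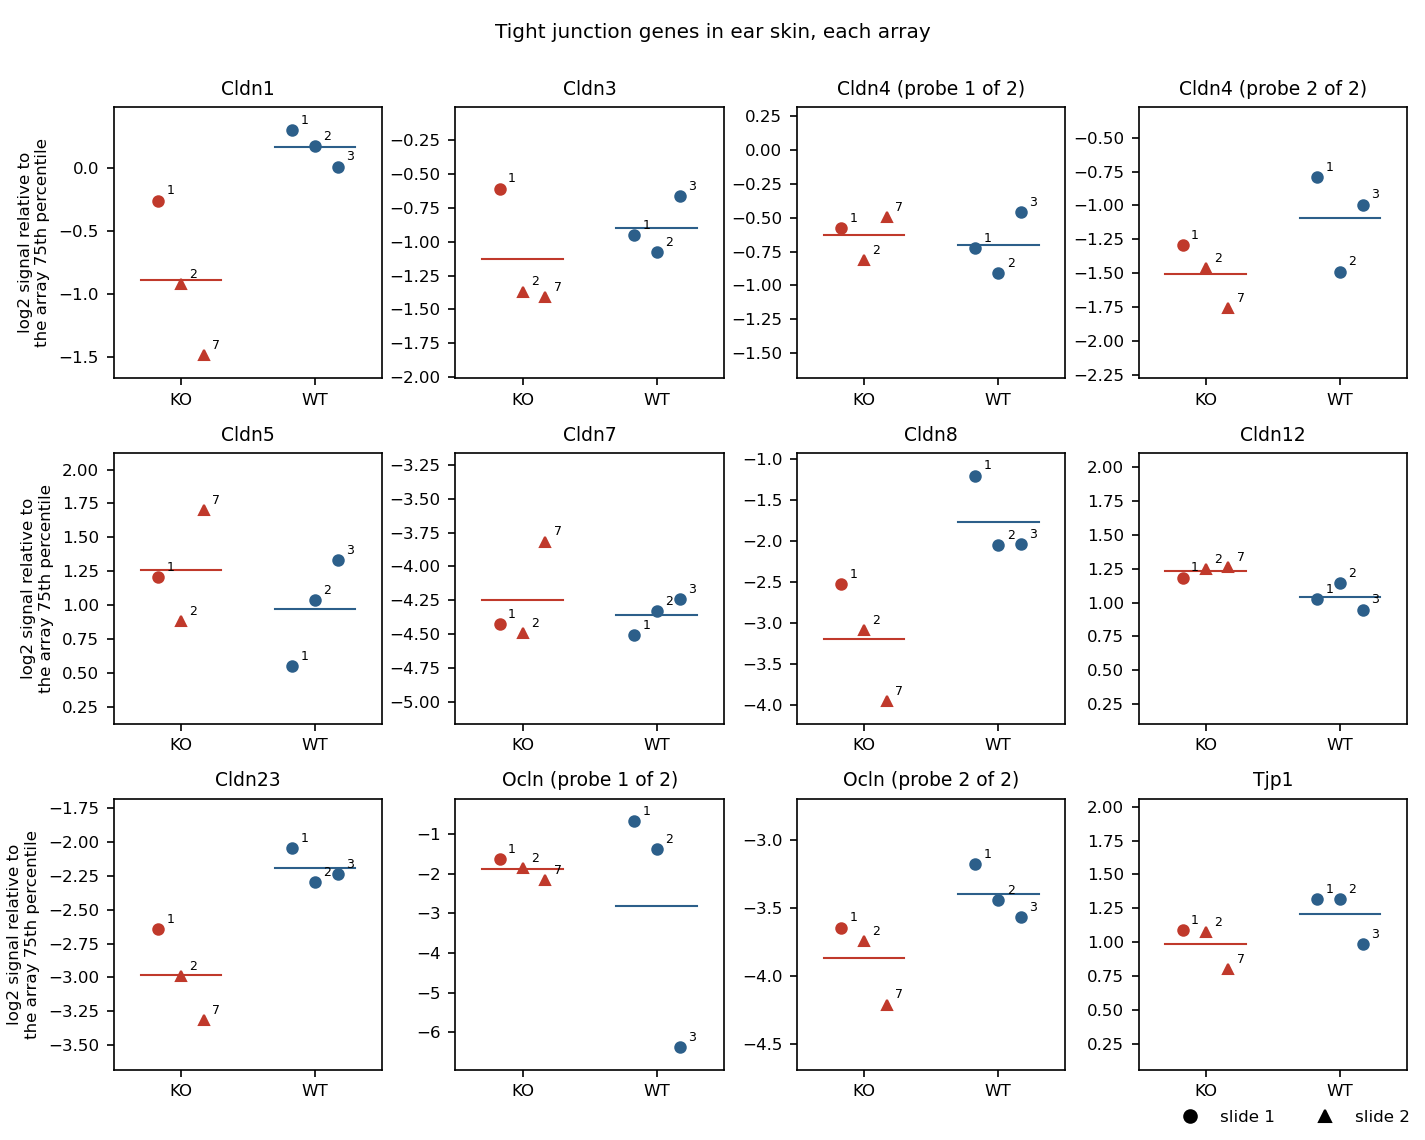
Each panel is 1 probe, with the scaled log2 signal on the vertical axis (0 is the 75th percentile of that array), a point for each array, a bar for the group mean, numbers for the replicate and the marker shape for the slide (vertical scales are placed per probe). Cldn1, Cldn8, Cldn23 and the second Ocln probe have all KO points below all WT points, and WT 3 stands alone at −6.37 on the first Ocln probe.

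Cldn1, the claudin whose loss opens the epidermal water barrier, measured −0.26, −0.92 and −1.49 in KO ears (KO 1, KO 2 and KO 7), against 0.30, 0.18 and 0.01 in WT ears. Every KO array lay below every WT array, and the KO arrays were spread over a wider range than the WT arrays. The means were −0.89 ± 0.61 in KO and 0.16 ± 0.15 in WT (SD, n = 3 each), a difference of −1.05 ± 0.30 (SE), which puts KO at 48.2% of WT. The limma adjusted p was 0.110, so the gene did not pass over all genes. KO 1, the KO array that shares a slide with WT, was 0.42 below the WT mean on the log2 scale (difference −0.42). With slide as a fixed block the difference was that same −0.42, with a limma adjusted p of 0.842.

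Cldn8, a claudin that in kidney and colon limits the leak of cations, measured −2.53, −3.09 and −3.95 in KO ears, against −1.21, −2.05 and −2.04 in WT ears. The groups did not overlap, and KO 7 was the lowest array. The means were −3.19 ± 0.72 in KO and −1.77 ± 0.48 in WT (SD, n = 3 each). The difference was −1.42 ± 0.40 (SE), or 37.3% of WT, with a limma adjusted p of 0.107. This was the widest mean difference among the members that were lower in KO. Within slide 1, on KO 1 alone, it was −0.76, and with slide as a fixed block the limma adjusted p was 0.830.

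Cldn23, a claudin expressed in differentiated epithelium, measured −2.65, −2.99 and −3.32 in KO ears, against −2.05, −2.29 and −2.24 in WT ears. Again no KO array reached a WT array. The means were −2.99 ± 0.34 in KO and −2.19 ± 0.13 in WT (SD, n = 3 each). The difference was −0.79 ± 0.20 (SE), or 57.7% of WT, with the smallest limma adjusted p of the members, 0.0861. Within slide 1, on KO 1 alone, it was −0.45, and with slide as a fixed block the limma adjusted p was 0.723.

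**Figure D2:**
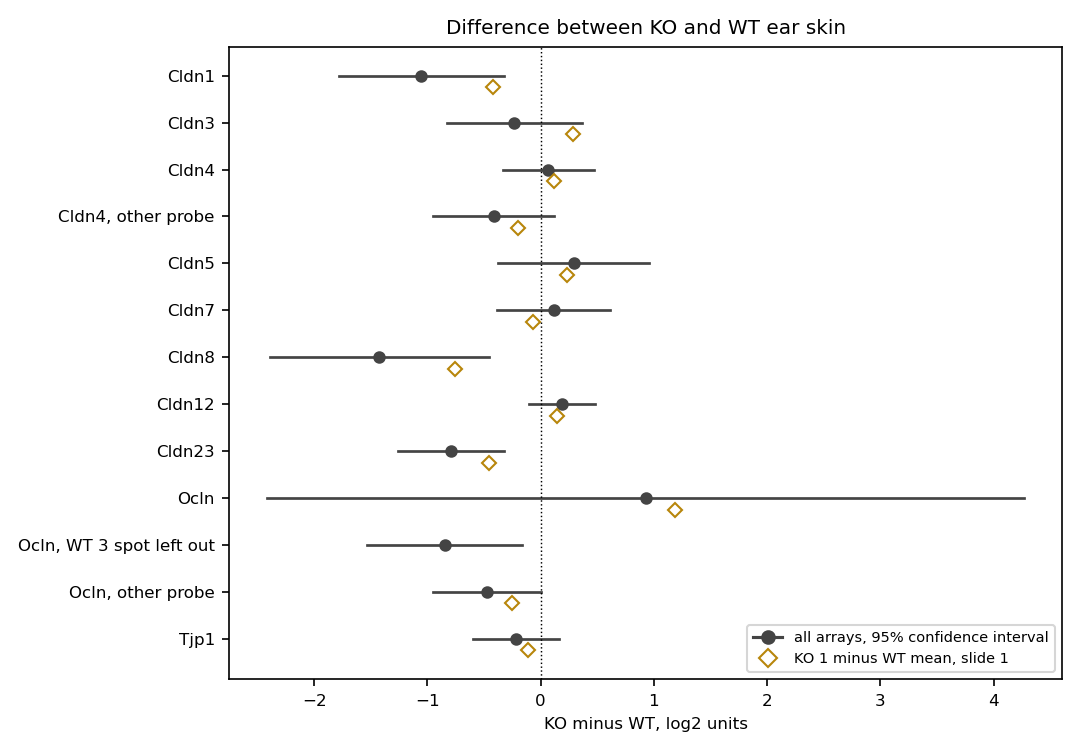
Filled points are the KO minus WT difference in log2 units with its 95% confidence interval from limma, and open diamonds are KO 1 minus the WT mean within slide 1. The intervals of Cldn1, Cldn8 and Cldn23 lie below 0, and their slide 1 values of −0.42, −0.76 and −0.45 are nearer to 0.

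These 3 claudins shared their pattern over the arrays. Over the 6 arrays, Pearson's r was 0.983 between Cldn23 and Cldn1, 0.982 between Cldn23 and Cldn8, and 0.968 between Cldn8 and Cldn1. The points share the group difference and the array scaling, and these genes were picked as the 3 members with the smallest limma p. A high r is therefore given as a description only. The genes most like Cldn23 over the same arrays were Flg2, with r of 0.999, followed by Pitpnb and Acsl6, each at 0.998. Those most like Cldn1 were Cgn, Fut8 and Stt3b, each at 0.997. Sdr9c7 had the highest r with Cldn8, followed by AW549877 at 0.999 and Rgs18 at 0.998 on the same 6 arrays. These are the highest r of a search over all other genes with a RefSeq name. On 6 arrays such a search finds values near 1 readily, and a shared role was not tested.

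Markers of the keratinocytes themselves did not pass the test, but most were higher in KO in mean. Basal markers, Col17a1 among them, had 0 of 7 genes passing. They averaged 5.14 to 5.21 on the KO arrays and 4.89 to 5.05 on the WT arrays. Suprabasal markers had 0 of 8 passing, with averages of 4.23 to 4.60 in KO and 3.98 to 4.26 in WT. In mean, 5 basal markers were higher and 2 lower, and 6 suprabasal markers were higher and 2 lower. All KO arrays lay above all WT arrays in 4 basal and 3 suprabasal markers, and below them in 0 of either list. Over all genes these arrangements were found in 21.4% and 14.0%. Cldn1 minus the mean of both keratinocyte lists was −5.64 ± 0.66 in KO and −4.35 ± 0.14 in WT (SD, n = 3 each). This difference of −1.29 had a two-sided exact permutation p of 0.1, the smallest that 20 arrangements of the arrays allow. It was −0.56 within slide 1. Cldn1 alone differed by −1.05, so part of the −1.29 is the higher mean of the keratinocyte lists in KO. Other marker lists differed between the groups, with which slide is partly confounded. Hair follicle markers were higher in KO in mean in 16 of 16 genes and passed in 14. They averaged 1.01 to 1.67 in KO and −1.76 to −1.08 in WT. Keratinocyte stress markers were higher in mean in 8 of 8 and passed in 5, averaging 4.33 to 5.28 in KO and 1.04 to 2.28 in WT. With slide as a fixed block, 10 of those 14 and 2 of those 5 kept an adjusted p under 0.05 in limma. The 2 stress genes kept were S100a8 and S100a9. Krt16, Krt17 and Sprr2d were not kept (limma adjusted p = 0.434, 0.382 and 0.0850 with that block). Among sebaceous gland markers 1 of 7 passed, higher in KO, although 5 were lower and 2 higher in mean, with a median difference of −0.14. Among Schwann cell and nerve markers 1 of 6 passed, lower in KO, and all 6 were lower in mean. Neither call was kept with slide as a block. None of the adipocyte, skeletal muscle, cartilage or leukocyte lists had a gene passing, with median differences of −0.94, −0.54, −0.63 and 0.14. The part of these shifts in the claudin values was not tested.

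The other epithelial claudins gave small or mixed differences. Cldn3, a sealing claudin of simple epithelia, measured −0.61, −1.37 and −1.41 in KO ears, against −0.95, −1.07 and −0.66 in WT ears, and the groups overlapped. Its difference was −0.23 ± 0.25 (SE), with a limma adjusted p of 0.563, and it was 0.29 within slide 1, where KO 1 was the highest of the arrays. Cldn7, which in epidermis and gut also lies along the lateral membrane, measured −4.43, −4.49 and −3.82 in KO ears, against −4.51, −4.33 and −4.24 in WT ears. Only KO 7 stood above the WT arrays, and the difference was 0.11 ± 0.21 (SE), with a 95% interval of −0.39 to 0.62 and a limma adjusted p of 0.738. Its sign turned under 9 of 23 other settings, array median scaling (−0.02) and quantile normalization (−0.04) among them.

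Cldn4, a claudin of the granular layer, measured −0.58, −0.81 and −0.50 in KO ears on its first probe, against −0.73, −0.91 and −0.46 in WT ears. These values overlapped, with a difference of 0.07 ± 0.17 (SE), a 95% interval of −0.33 to 0.47 and a limma adjusted p of 0.805, and array median scaling turned it to −0.07. The other Cldn4 probe measured −1.29, −1.46 and −1.76 in KO ears, against −0.79, −1.49 and −0.99 in WT ears. The probes therefore disagreed in sign, and the other probe's −0.42 ± 0.22 (SE) did not pass either (limma adjusted p = 0.264).

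Cldn12, an atypical claudin linked to calcium passage in gut, measured 1.19, 1.25 and 1.26 in KO ears, against 1.03, 1.15 and 0.95 in WT ears. It was the only member with every KO array above every WT array, at 0.19 ± 0.12 (SE), and its limma adjusted p was 0.335. Before scaling, its processed signal ran the other way, at 10040, 9884 and 9120 in KO and 13559, 11677 and 10631 in WT. Its place above WT thus depends on scaling the arrays, and the difference was 0.19 with quantile normalization and 0.0541 with array median scaling.

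Cldn5, the endothelial claudin, measured 1.21, 0.88 and 1.70 in KO ears, against 0.55, 1.04 and 1.33 in WT ears. The groups overlapped, with a difference of 0.29 ± 0.28 (SE) and a limma adjusted p of 0.514. The 15 endothelial markers had 0 genes passing and a median difference of 0.35, with averages of −0.47 to 0.04 in KO and −0.87 to −0.30 in WT. Taken within each array, Cldn5 minus the endothelial markers was 1.51 ± 0.16 in KO and 1.47 ± 0.14 in WT (SD, n = 3 each). That difference of 0.04 had a two-sided exact permutation p of 0.8.

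Occludin depended on 1 spot. Its first probe measured −1.63, −1.87 and −2.16 in KO ears, against −0.69, −1.39 and −6.37 in WT ears, where the last value, WT 3, lay far below every other array. With that spot the difference was 0.93 ± 1.40 (SE), with a 95% interval of −2.41 to 4.27 and a limma adjusted p of 0.682. The processed signal there was 66.7 on WT 3, beside 4129 and 2013 on WT 1 and WT 2. The software had not marked the spot as an outlier.

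The WT 3 spot lay in a dim patch of the slide. Of 31 neighbouring spots with signal, within 3 rows and columns, 27 were below their own median over the arrays, and their median deviation was −1.45 on the log2 scale. Around the same position the other 5 arrays had local medians of 0.02 to 0.06. The patch held 43 of 43020 spots on WT 3, no other array had one, and among 72 pairs of member probe and array this was the only pair inside it. Without that spot, which leaves WT 1 and WT 2, KO lay wholly below WT, and the difference was −0.85 ± 0.27 (SE), with a 95% interval of −1.53 to −0.17 and a limma adjusted p of 0.140.

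The other Ocln probe, outside the patch, measured −3.64, −3.74 and −4.21 in KO ears, against −3.17, −3.44 and −3.57 in WT ears. The groups did not overlap, and the difference was −0.47 ± 0.20 (SE), with a limma adjusted p of 0.187. Both Ocln readings that leave the patch out were thus lower in KO in mean, and neither passed. Within each array, the first Ocln probe minus the keratinocyte markers differed by 0.69 between KO and WT with the patch spot included, with a two-sided exact permutation p of 1. The other probe minus the same markers, added after the data were seen, differed by −0.71, with a two-sided exact permutation p of 0.1, again the smallest possible.

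**Figure D3:**
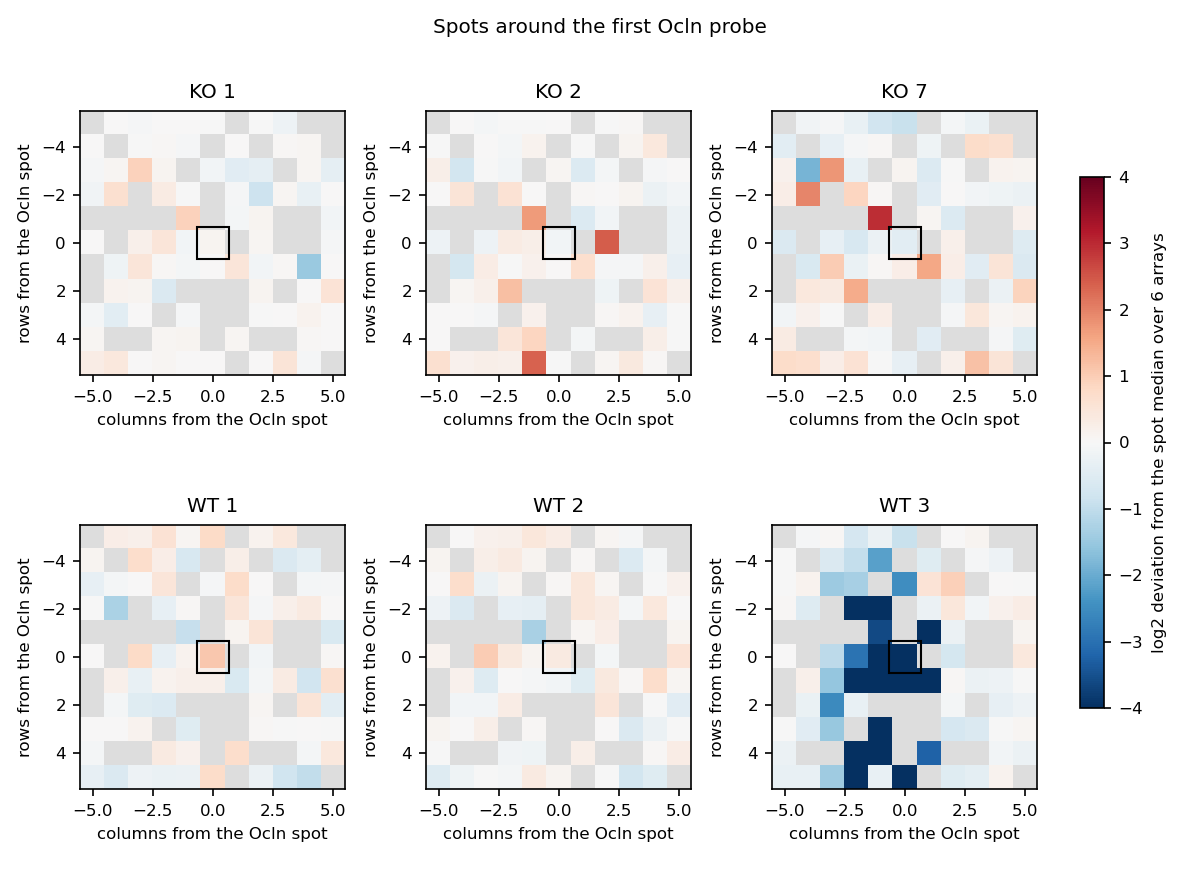
Each panel maps the spots around the first Ocln probe (square) on 1 array by row and column distance, coloured by the log2 deviation of the spot from its median over the 6 arrays, with grey for spots without enough signal. WT 3 has a column of dark spots through the square, and the other 5 arrays have none.

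Tjp1, the scaffold that links the strand to actin, measured 1.09, 1.08 and 0.80 in KO ears, against 1.32, 1.32 and 0.98 in WT ears. Its groups overlapped by 1 WT array, and the difference was −0.22 ± 0.16 (SE), with a limma adjusted p of 0.397. Within slide 1 it was −0.11.

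KO 7 stood lowest among the KO arrays in 8 of the 12 member probes and lowest of all arrays in 7. How often KO 7 is lowest over all probes was not counted, so this is not read as a trait of the members. Without KO 1, which leaves slide and group identical, Cldn1 passed at −1.37 (limma adjusted p = 0.0386) and Cldn23 at −0.96 (limma adjusted p = 0.0472), where 1.07% of all genes were lower and 3.04% higher. With array weights, in which KO 2 had a weight of 5.74 and KO 7 of 0.32, Cldn1, Cldn8 and Cldn23 passed at −1.05, −1.16 and −0.73. There 13.0% of all genes were lower and 19.2% higher, so many more genes of the whole array passed as well.

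**Figure D4:**
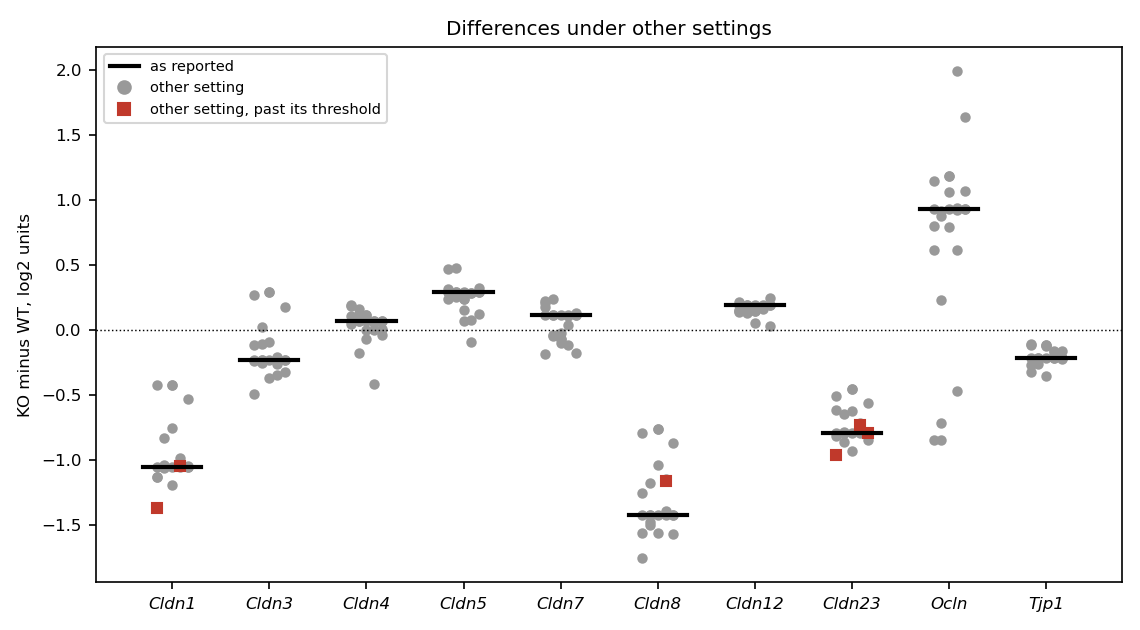
Vertical positions are the KO minus WT difference in log2 units, with the bar as reported, grey points for the other settings tried and red squares where a setting put the gene past its own threshold. Cldn1, Cldn8 and Cldn23 stay below 0 under every setting tried, while Ocln falls on both sides of 0. Leaving out an array could not turn the sign of these claudins, whose groups do not overlap, and some settings left their values unchanged.

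Around the members, 77 further genes of cell junctions were listed and 72 were measured. Only 1 passed, against 1.98% of all genes higher and 0.389% lower: Ehf, an epithelial transcription factor of the ETS family, at 1.82 ± 0.21 (SE) and a limma adjusted p of 0.00967. Ehf measured 1.81, 2.32 and 2.39 in KO ears and 0.50, 0.09 and 0.48 in WT ears. Its other probe gave 1.86, and within slide 1 the difference was 1.45. With slide as a fixed block its limma adjusted p was 0.0991.

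None of 11 measured further claudins passed, with a median difference of −0.07, and the smallest p were those of Cldn17 at 0.67 and Cldn25 at 0.69 (limma adjusted p = 0.0653 and 0.105). Both were dim, with Cldn17 averaging −6.48 in KO and −7.14 in WT, and Cldn25 −6.36 and −7.04. Their signals before scaling were not compared. None of 11 other tight junction membrane proteins passed, where Ildr2, of the tricellular junction, differed by 0.86 and Crb3, a polarity protein, by 0.46. None of 22 plaque and polarity proteins passed, where the scaffold Magi2 differed by 0.55 and cingulin (Cgn) by −0.39. Magi2 was dim too, averaging −6.23 in KO and −6.78 in WT, beside 2.19 and 2.59 for Cgn. Its signal before scaling was not compared either. Among adherens junction proteins, P-cadherin (Cdh3) differed by 0.96 and Nectin3 by −0.91, and among claudin partners and surface proteases, the protease St14 differed by 0.30, with none of 9 and none of 6 passing. Beside Ehf, the repressor Zeb1 differed by −0.65 (limma adjusted p = 0.0886) and Elf3, another ETS factor, by 1.93 (limma adjusted p = 0.0904). The medians of these lists ran from −0.10 to 0.19, beside 0.05 over all genes.

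**Figure D5:**
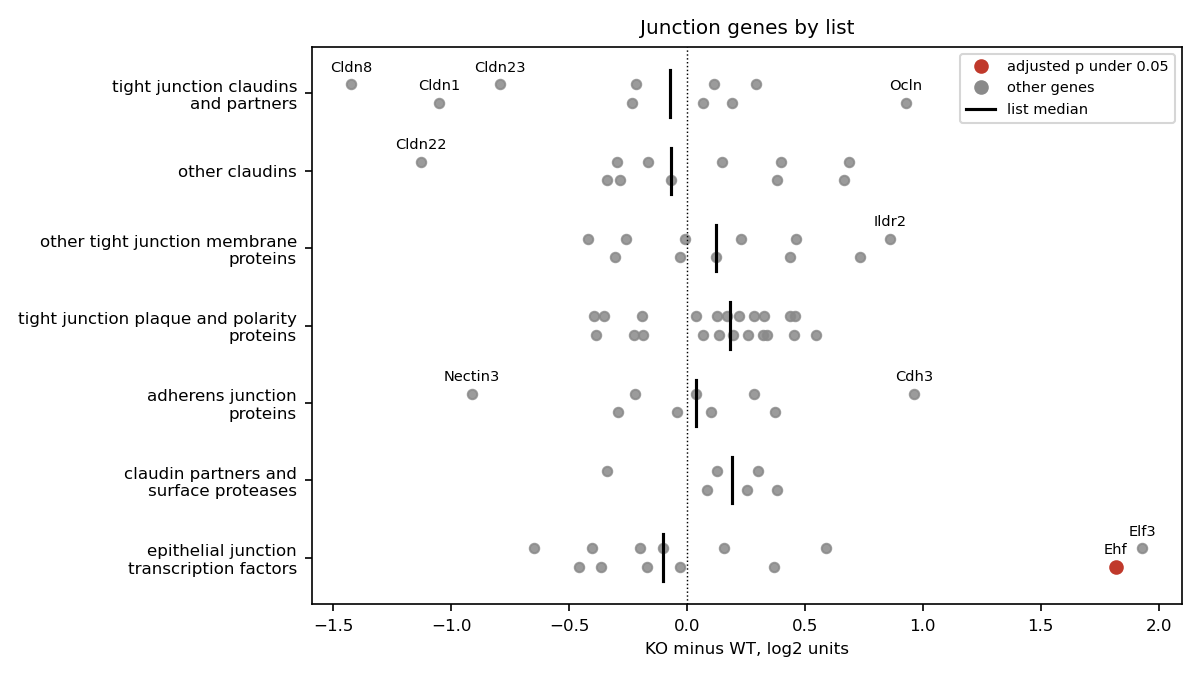
Each point is 1 gene, placed by its KO minus WT difference in log2 units and by its list, with a black bar at the list median and red for an adjusted p under 0.05. Cldn8, Cldn1 and Cldn23 lie left of the member median of −0.07, and Ehf at 1.82 is the only red point.

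RefSeq (GRCm38.p6) held promoters for 8 of the 10 genes, 12 in all, so some genes count more than once. Cldn8 and Cldn23 had none and were not searched. The GC box GGGCGG, on either strand, occurred in 10 of these 12 and in 32.7% of 32851 promoters of the same length. All 8 genes had it in at least 1 promoter. The E-box CAGGTG, read by Snail and Zeb repressors, occurred in 3 of 12 and in 17.2% of all promoters. TGANTCA (AP-1) and AACCNGTT (Grainyhead) occurred in 1 of 12 each, beside 6.75% and 1.79% of all, and TATAAA in 0 of 12, beside 12.4%. The Cldn1 promoter is shown because, of the 3 claudins lower in KO with no overlap, only Cldn1 had one. Its 250 bases before the start lie at chr16:26371840-26372089 (minus strand), with the 2 GC boxes in capitals. Members that overlapped between the groups, Cldn4, Cldn5, Cldn7 and Tjp1 among them, held the GC box too. A match describes the letters in this window only.
Cldn1 promoter: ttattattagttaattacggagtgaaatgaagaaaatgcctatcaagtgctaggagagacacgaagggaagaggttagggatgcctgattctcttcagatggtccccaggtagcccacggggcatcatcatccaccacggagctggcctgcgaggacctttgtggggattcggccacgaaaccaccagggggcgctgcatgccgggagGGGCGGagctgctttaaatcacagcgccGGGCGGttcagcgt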

How the data were processed

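Ear skin RNA of 3 KO and 3 WT mice was measured on 6 one-colour arrays, grouped by sample title. The deposited scanner files give the processed signal as an intensity, background-subtracted and spatially detrended by Agilent Feature Extraction 10.7.3.1 (protocol GE1_107_Sep09), per the file headers. In the series matrix, the deposited intensity was identical on every array. Outlier spots (170 to 249 an array) were left out and spots of a probe averaged. Values were log2 of the intensity minus the array's 75th percentile, computed here from the deposited signals. Probes had to exceed background clearly on 3 or more arrays, which left 29602, and the brightest of them on average stood for its gene. Names came from RefSeq where matched.

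KO and WT were compared in limma 3.58.1 under R 4.3.3, using two-sided moderated tests from lmFit and eBayes, and p-values were adjusted by Benjamini and Hochberg's method across 23676 genes. Values of a gene's other probe come from a fit of single probes. A spot was placed in a patch when at least 8 neighbours within 3 rows and columns had a median deviation past 1 on the log2 scale.

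The named genes were all members, and in each junction list those past the threshold, or the leading 2 by p-value where under 2 passed; Elf3 was named after its value was seen, and 1 gene that the rule named is not reported here. The members and lists were chosen with earlier results of these data known. Replicate numbers 1 and 2 occur in both groups. Deviations of same-numbered arrays correlated at 0.083 and 0.054, and the sources name no pairing, so they share a number only. Alternatives varied background, normalization, filter, probes, slide, weights, threshold and the arrays used. Leaving out the patch, the other Ocln probe, and slide together with array median or quantile scaling were added after the data were seen. Tables were handled with pandas 2.3.3 and numpy 2.4.6 under Python 3.11.15, and plots drawn with matplotlib 3.10.9.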

Additional observations from a re-analysis of the deposited data

How the results depend on the processing

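Cldn1, Cldn8 and Cldn23 stayed lower in KO under all 23 other settings, at −1.37 to −0.42, −1.76 to −0.76 and −0.96 to −0.45. Many of these settings could not turn their sign. The filters, the mean of probes, the intensity trend, the threshold and the patch left their values unchanged, and slide 1 alone repeats slide as a block. As their groups did not overlap, leaving out an array could not reverse them either. Tjp1 kept −0.35 to −0.11 and Cldn12 0.03 to 0.24. Members lower in KO numbered 3 with array weights, 1 at an adjusted p under 0.10 and 0 to 2 with an array left out (2 without KO 1), and members higher numbered 0 to 0. Array median scaling moved the median of all kept probes to −0.10, beside 0.04 as reported.

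Cldn7 reversed with quantile normalization (−0.0432), array median scaling (−0.0222), slide as a block or slide 1 alone (−0.0677), the replicate block (−0.0399), array weights (−0.12), without KO 7 (−0.0994), and with slide as a block under median scaling or quantile normalization (−0.18 each). Cldn4 reversed with median scaling (−0.0679), the mean of its probes (−0.17), array weights (−0.000561), its other probe (−0.42) and without WT 2, with −0.0375 to 0.190 when an array was left out. Cldn3 reversed with slide as a block or slide 1 alone (0.29), the replicate block (0.0249), and slide with median scaling (0.18) or quantile normalization (0.27). Cldn5 reversed with array weights (−0.0886). Ocln reversed with the replicate block (−0.71), without WT 3 or its patch (−0.85 each) and with the other probe (−0.47), and ranged up to 1.99 with an array left out (without WT 1). The dim patch lies beside the WT 3 result; the cause of the other reversals was not tested.

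With an array left out, Cldn5 minus endothelial markers ranged from −0.0307 (without KO 7) to 0.12 (−0.00998 without WT 2), Cldn1 minus keratinocyte markers from −1.65 to −1.01, and Ocln minus keratinocyte markers from −1.06 to 1.77, with −0.71 on its other probe.

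Other junction genes higher in KO numbered 2 with normexp background, 2 with an intensity trend, 17 with array weights (10 lower), 5 at an adjusted p under 0.10 (1 lower), and 0 with slide as a block under any of the 3 scalings or with the replicate block; with an array left out they numbered 0 to 2, and 0 to 2 lower. Over all genes, counts higher and lower were 860 higher with normexp, 149 lower with median scaling, 269 and 27 with no filter, 158 and 10 with slide as a block, 149 and 10 with slide and median scaling, 131 and 7 with slide and quantile normalization, 4546 and 3076 with array weights, 1570 and 471 at an adjusted p under 0.10, and 183 to 719 and 19 to 254 with an array left out. The replicate block, which rests on the 2 numbers found in both groups, left 0 genes in both directions in limma. As reported there were 469 higher and 92 lower. At an unadjusted p under 0.05 in limma it left 4517, against 6302 as reported. KO 7 and WT 3 have numbers of their own in that block, so its spread is estimated from the other arrays alone. Fewer genes can pass for that reason.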
